A study of Mus musculus with 18 samples.

Results

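EA2 is a murine lung cancer line driven by an Eml4-Alk fusion and described in the methods of the study as p53 null. The comparison reported here sets EA2 cells recovered from lung tumors against EA2 cells kept in culture, and takes every EA2 library of the series, 8 of 18. The in vivo group has 5 libraries. For these, 500000 cells were placed in the left lung of male C57BL/6 hosts aged 8 to 12 weeks that express GFP in all tissues, and after 4 weeks the lungs were digested and live GFP-negative cells were sorted. Each library is a pool of the tumors of 3 to 5 mice. The in vitro group has 3 libraries of EA2 cells grown over the same weeks in RPMI-1640 with serum and pelleted from the dish, so these cells saw neither the digestion nor the sorter. Effects of the lung and of the recovery procedure cannot be told apart in this design. The GFP-negative gate would also pass any host cell that had lost GFP. Values are FPKM, fragment counts divided by transcript length and by library size.

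A carcinoma cell in the lung is exposed to T and NK cells that secrete interferon gamma, to macrophages, to matrix and to the oxygen and nutrients that local vessels supply. Interferon gamma signals through JAK kinases to IRF1, which switches on guanylate-binding proteins, the immunoproteasome, peptide transporters and MHC molecules. The transcription factor ATF4 raises amino acid synthesis enzymes when an amino acid runs short, and growth factor signaling through ERK keeps the cells dividing.

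Genes that define the line were read first. EA1, the other line of the series, also carries an Eml4-Alk fusion, so Alk and Eml4 do not tell these lines apart. Alk, the kinase of the fusion, which normal lung hardly uses, was at 23.3, 22.8, 20.0, 18.6 and 21.5 FPKM in vivo, against 5.63, 17.0 and 6.35 FPKM in vitro. Eml4, its partner, was at 27.7, 27.9, 26.7, 19.1 and 31.4 FPKM in vivo, against 7.78, 26.3 and 9.03 FPKM in vitro. Both were therefore found in every library, and in vitro library 2 was closer to the in vivo libraries than the other 2 in vitro libraries were. Alk had a log2 change of 1.21 with all 3 in vitro libraries (limma, adjusted p = 0.00560) and of 0.30 against library 2 alone, which did not pass the test (adjusted p = 0.249). The value for Eml4 was 1.02 (limma, adjusted p = 0.0246) and -0.0045. Trp53, the gene of the tumor suppressor p53, was at 14.9, 17.6, 16.9, 17.4 and 11.6 FPKM in vivo, against 45.9, 31.5 and 40.4 FPKM in vitro. RNA of Trp53 was thus present in every library of a line called null, and a value per gene does not show which exons it came from. Cdkn2a, which encodes the p16 and p19 inhibitors, was at 1286, 1415, 1096, 1229.8 and 1096 FPKM in vivo, against 924, 867 and 691 FPKM in vitro.

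In vitro libraries 1 and 3 stood apart. FPKM summed to 475434 to 484492 in the in vivo libraries, against 733184, 518260 and 717905 in in vitro libraries 1, 2 and 3, and the 100 most abundant genes took 28.7% to 31.4% of the sum in vivo, against 40.0%, 28.4% and 38.3% in vitro. Genes were put in 8 classes of about equal size by transcript length. In the shortest class (median 988 nt) the median log2 deviation from the in vivo mean was 1.09, 0.36 and 1.03 in in vitro libraries 1, 2 and 3, and in the longest class (median 7604 nt) it was -1.12, -0.38 and -0.80. The in vivo libraries lay between -0.12 and 0.07 in every class. Each main result is for this reason given against all 3 in vitro libraries and against in vitro library 2 alone, side by side. Spearman correlations across genes were 0.940 to 0.978 between in vivo libraries, 0.919 to 0.973 between in vitro libraries, 0.822 to 0.879 between in vivo libraries and in vitro library 2, and 0.735 to 0.793 with libraries 1 and 3. FPKM carry no counts and the depth is unknown, but the smallest values give a depth relative to in vivo library 1 of 0.933 to 1.26 in vivo and of 1.21, 1.52 and 1.079 in vitro. The labels do not say whether the libraries of a group come from separate cultures, so p-values measure the spread between these libraries.

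**Figure D1:**
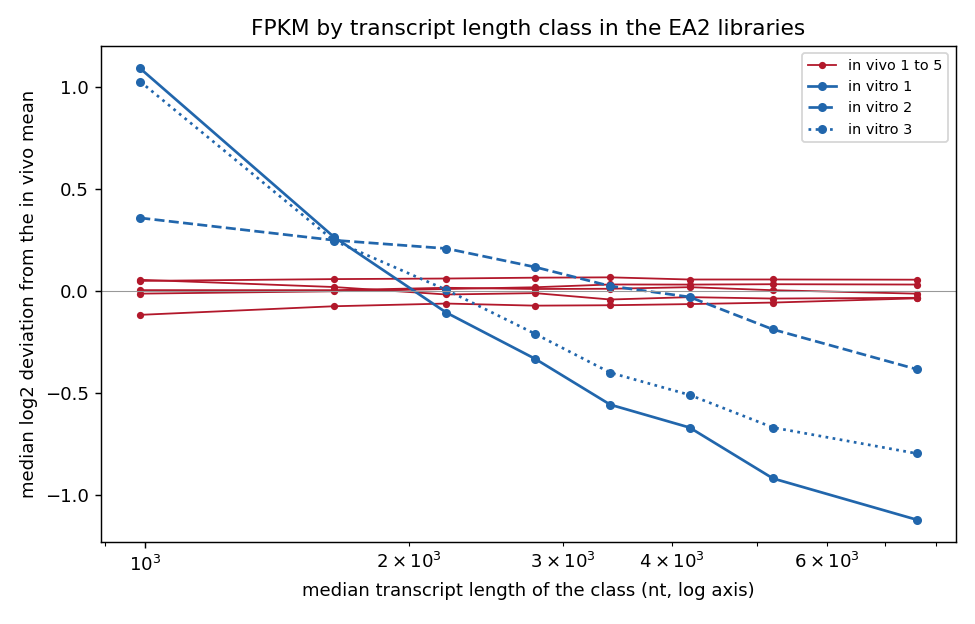
Median log2 deviation from the in vivo mean (vertical axis) of the genes in 8 classes of transcript length (horizontal axis, log scale), with a line for each of the 5 in vivo libraries (red) and the 3 in vitro libraries (blue). The in vivo lines stay between -0.12 and 0.07, while in vitro libraries 1 and 3 fall from 1.09 and 1.03 in the shortest class to -1.12 and -0.80 in the longest, and in vitro library 2 from 0.36 to -0.38.

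Of 24320 genes, 11074 had at least 1 FPKM in at least 3 libraries and were tested with limma on log2(FPKM + 1), with Benjamini-Hochberg adjustment at a threshold of 0.05. Against all 3 in vitro libraries 3643 genes were higher in vivo (32.9% of the genes tested) and 2702 were lower (24.4%). Against in vitro library 2 alone, where the lone library is assumed to vary like the in vivo libraries, 1603 were higher (14.5%) and 1667 lower (15.1%). In both comparisons 1552 were called higher (14.0%) and 1377 lower (12.4%). These shares are the background for every count of list members below, 32.9% and 24.4% against 3 libraries and 14.5% and 15.1% against library 2. The median change of all genes was 0.18 against 3 libraries and -0.05 against library 2. Which direction had more calls depended on scaling: 57.4% of calls were higher in the 3-library comparison, against 48.2% after median-of-ratios scaling (3112 higher, 3338 lower) and 48.3% with the trend with transcript length removed (2867 higher, 3072 lower). On this scale a change of a gene near 0 in vitro understates the fold and lies close to its in vivo level, and 508 of the genes tested were below 1 FPKM in every in vitro library, so they passed the filter through the in vivo libraries and could hardly be called lower.

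The 10 largest rises were in Cd74, Mgp, Psmb8, Dcn, Col6a2, Gbp2, Iigp1, Col6a1, Trf and Lbp, and all were called against library 2 as well. Mgp, matrix Gla protein, an inhibitor of calcification, was at 168, 146, 165, 111 and 64.5 FPKM in vivo, against 0.125, 0 and 0.140 FPKM in vitro. Trf, transferrin, the iron carrier of plasma, was at 685, 1252, 1642, 1715 and 398 FPKM in vivo, against 9.52, 2.199 and 70.8 FPKM in vitro. Lbp, which presents bacterial lipopolysaccharide to its receptor, was at 65.0, 68.8, 42.5, 129 and 104 FPKM in vivo, against 0.0511, 0.0685 and 0.155 FPKM in vitro. No in vivo value of these 3 genes came near an in vitro value, although in vitro library 3 held more Trf than the other 2. The log2 changes were 6.84, 6.21 and 6.14 (limma, adjusted p = 5.46e-07, 0.000223 and 9.82e-07), and 6.96, 8.28 and 6.17 against library 2. Among genes that both groups expressed at a mean of 5 FPKM or more, the largest rises included Mt2, a metallothionein that binds zinc and copper, at 664, 1337, 692, 863 and 384 FPKM in vivo, against 1.88, 46.0 and 8.37 FPKM in vitro. Cp, the copper-carrying ferroxidase ceruloplasmin, was at 242, 462, 226, 157 and 226 FPKM in vivo, against 7.35, 5.59 and 9.65 FPKM in vitro. Aldh3a1, an aldehyde dehydrogenase, was at 88.2, 68.9, 42.2, 92.5 and 61.9 FPKM in vivo, against 3.11, 4.54 and 7.82 FPKM in vitro. Mt2 was the least even of these in culture, with library 2 above the other 2 in vitro libraries, and its log2 change was 6.07 against 3 libraries and 3.95 against library 2.

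The 10 largest falls were in Snord49a, Serpinb2, Csf2, Gpr141, Snhg1, Plscr2, Snora65, Rgs16, Cth and 1810032O08Rik, and all but Snora65 (-2.97, limma, adjusted p = 0.0817) were called against library 2 as well. Serpinb2, an inhibitor of plasminogen activators, was at 0.253, 0.202, 0.914, 0.830 and 0 FPKM in vivo, against 120.1, 74.7 and 90.7 FPKM in vitro. Csf2, the cytokine GM-CSF, was at 1.49, 1.29, 2.497, 2.76 and 0.966 FPKM in vivo, against 154, 114 and 85.5 FPKM in vitro. Gpr141, an orphan receptor, was at 0.465, 0.941, 0.461, 0.124 and 0.0402 FPKM in vivo, against 41.4, 32.8 and 31.1 FPKM in vitro. Every in vitro library was far above every in vivo library for these genes. The log2 changes were -6.08, -5.41 and -4.71 (limma, adjusted p = 5.46e-07, 9.82e-07 and 9.82e-07), and -5.76, -5.40 and -4.62 against library 2. Rgs16, which switches off G proteins, was at 4.20, 3.07, 5.83, 10.2 and 0.843 FPKM in vivo, against 73.2, 192 and 71.8 FPKM in vitro. Plscr2, a phospholipid scramblase, was at 1.72, 2.09, 4.75, 3.49 and 0.476 FPKM in vivo, against 64.8, 43.5 and 117 FPKM in vitro. Rgs16 had its highest value in in vitro library 2 and Plscr2 its lowest in vitro value there, yet both were called in both comparisons (-5.28 and -3.81 against library 2). Snhg1, a noncoding host of small nucleolar RNAs, was at 70.9, 72.2, 81.9, 45.8 and 65.3 FPKM in vivo, against 3499, 946 and 1199 FPKM in vitro. Gas5, another such host, was at 20.9, 20.7, 22.6, 8.45 and 12.1 FPKM in vivo, against 123, 53.4 and 73.0 FPKM in vitro. Snord49a, a small nucleolar RNA, was at 0 in all 5 in vivo libraries, against 331, 1115 and 571 FPKM in vitro, and FPKM of a transcript this short are unstable.

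**Figure D2:**
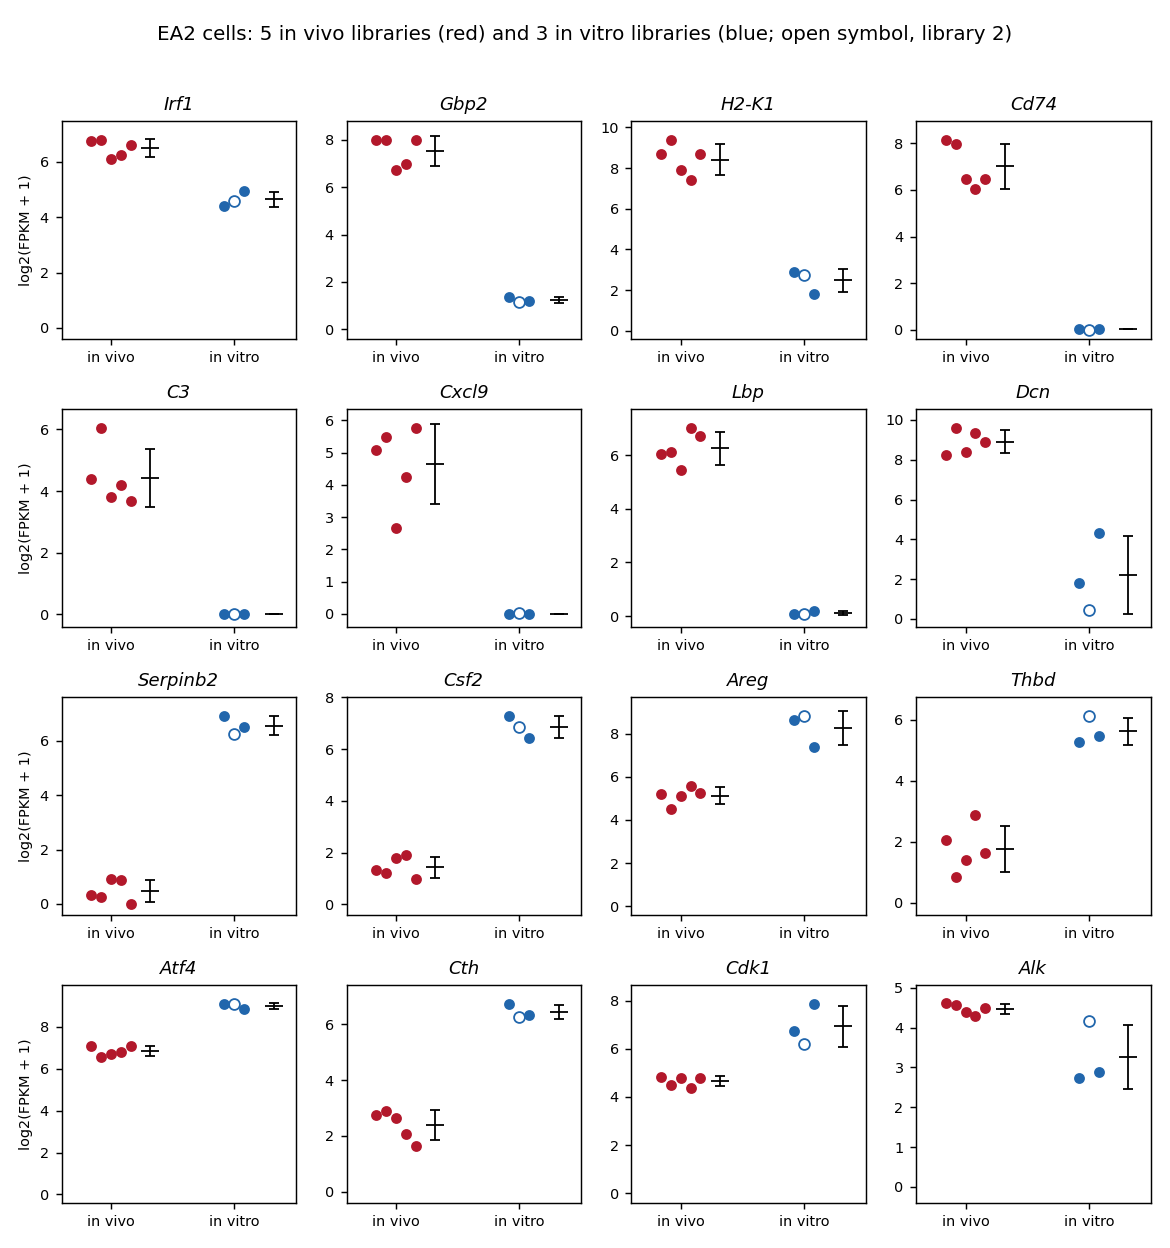
Levels of 16 genes as log2(FPKM + 1) in each of the 5 in vivo libraries (red, left) and the 3 in vitro libraries (blue, right; the open symbol is in vitro library 2), with mean and SD as a black bar beside each group. The groups do not overlap in any of the 16 genes, and they come closest in Alk, where in vitro library 2 is at 17.0 FPKM.

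Interferon signaling genes were higher in the cells from tumors. Of 21 signaling genes and transcription factors tested, 19 were called higher and none lower against 3 libraries, and 10 and none against library 2, with a median change of 1.60 and 0.99. Of the 21, 5 passed the filter through the in vivo libraries and so could hardly be called lower. Among the 16 with a mean of at least 1 FPKM in vitro, 14 were higher against 3 libraries and none lower. Irf1, which interferon gamma induces, was at 108, 110.5, 67.2, 74.9 and 97.6 FPKM in vivo, against 20.3, 22.8 and 30.04 FPKM in vitro. Irf9, a factor of the response to type I interferon, was at 20.1, 27.3, 15.4, 15.8 and 13.2 FPKM in vivo, against 4.93, 4.64 and 4.16 FPKM in vitro. All in vivo libraries were above all in vitro libraries for both genes, with log2 changes of 1.86 and 1.75 (limma, adjusted p = 0.000153 and 0.000213) and of 1.94 and 1.73 against library 2, called each time. Nlrc5 and Ciita, the transactivators of MHC class I and class II genes, were at 4.36, 6.92, 2.66, 2.18 and 3.71 FPKM in vivo, against 0.365, 0.213 and 0.0962 FPKM in vitro and at 4.72, 3.92, 1.31, 0.898 and 3.60 FPKM in vivo, against 0.0365, 0.00393 and 0.00548 FPKM in vitro. Nlrc5 was called in both comparisons, and Ciita only against 3 libraries (1.81, limma, adjusted p = 0.00187; adjusted p = 0.0631 against library 2). Batf2, a factor induced by interferon gamma, was at 5.07, 7.92, 1.48, 2.16 and 5.18 FPKM in vivo and was listed at 0 in the 3 in vitro libraries. Socs3 and Socs1, feedback inhibitors of JAK kinases, had changes of 2.26 and 1.26, of which that of Socs1 was not called against library 2. The receptor chain Ifngr1 was at 45.6, 46.4, 38.4, 71.9 and 36.8 FPKM in vivo, against 40.3, 28.1 and 56.9 FPKM in vitro, with overlapping groups and a change of 0.21 (limma, adjusted p = 0.541). Ifngr2, the other chain, was called higher against 3 libraries only (1.04, and 0.84 against library 2).

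The interferon-inducible GTPases, which attack the vacuoles of intracellular pathogens, were higher in vivo throughout. All 14 that could be tested, of 18 listed, were called higher in both comparisons, with a median change of 3.94 and 4.39, although 9 of them were under 1 FPKM in every in vitro library and so passed the filter through the in vivo libraries. Gbp2 was at 254, 254, 106, 126 and 253 FPKM in vivo, against 1.61, 1.24 and 1.27 FPKM in vitro. Iigp1 was at 111, 121, 36.5, 42.3 and 113 FPKM in vivo and was listed at 0 in the 3 in vitro libraries. Igtp was at 77.0, 93.3, 36.5, 49.9 and 75.4 FPKM in vivo, against 0.753, 0.470 and 0.466 FPKM in vitro, and Irgm2 at 51.4, 59.7, 28.1, 28.9 and 39.9 FPKM in vivo, against 1.14, 0.537 and 0.697 FPKM in vitro. In each of these genes in vivo libraries 3 and 4 were the lowest of the 5 and still far above culture. Gbp2 had a log2 change of 6.30 and Igtp of 5.36 (limma, adjusted p = 9.82e-07 and 1.28e-06). Many of these genes lie in clusters of related copies: Gbp2 is at chr3:142620663-142638008, Gbp3 at chr3:142560016-142573213 and Gbp5 at chr3:142496934-142522344, and Igtp at chr11:58199556-58207592 and Irgm2 at chr11:58214977-58222783 (GRCm38). Reads shared between near-identical copies may have been split among them, so single members of this family, of the MHC class I family and of the metallothioneins are less certain than their direction as groups.

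Genes of the antiviral state that type I interferon induces were higher too. Of 25 tested, of 41 listed, 22 were called higher against 3 libraries and 16 against library 2, none was lower, and 9 passed the filter through the in vivo libraries. The median change was 1.60 and 1.67. Zbp1, a sensor of viral nucleic acid, was at 25.0, 24.9, 16.7, 21.0 and 31.0 FPKM in vivo, against 0.0232, 0.0619 and 0.0924 FPKM in vitro, and Bst2, tetherin, which holds budding virus at the cell surface, at 101.5, 109.8, 40.2, 76.4 and 84.4 FPKM in vivo, against 7.97, 3.63 and 7.83 FPKM in vitro. Parp14, an ADP-ribosyltransferase, was at 12.3, 17.4, 7.80, 7.09 and 9.70 FPKM in vivo, against 0.137, 0.0844 and 0.172 FPKM in vitro. Ifitm3, which blocks virus entry, was at 1313, 1263, 736, 1041 and 1300.1 FPKM in vivo, against 222, 303 and 173 FPKM in vitro. Genes that are among the strongest responders to type I interferon in most cells had low levels: Isg15, a ubiquitin-like modifier, was at 10.6, 14.8, 6.64, 8.07 and 8.42 FPKM in vivo, against 8.84, 3.02 and 2.75 FPKM in vitro, Ifit1 at 1.83, 7.63, 0.939, 2.19 and 1.06 FPKM in vivo, against 0.572, 0.176 and 0.112 FPKM in vitro and Usp18 at 1.20, 1.79, 0.760, 1.79 and 1.77 FPKM in vivo, against 0.108, 0.0737 and 0.0406 FPKM in vitro. Mx1 was under 1 FPKM in every library and was not tested. Isg15 and Usp18 were called higher in both comparisons and Ifit1 only against 3 libraries. For Isg15 the groups overlapped, with a change of 0.97 (limma, adjusted p = 0.0301).

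Promoters of members called in both comparisons are shown from the interferon and MHC class I lists, where no tested member was lower, and from the ATF4 and DNA replication lists, described below, where more were lower than higher. Promoters run from 250 bases before to 50 after the start site and come from RefSeq on GRCm38.p6. The word GAAANNGAA, the core of sites bound by interferon regulatory factors, was searched on both strands. It was found for 9 of 10 GTPase genes with a promoter in that table and for 11 of 19 type I interferon-stimulated genes, 5 of 19 MHC class I presentation genes and 3 of 17 interferon signaling genes, and for 0 of 4 MHC class II genes. Among all genes with a promoter 9.76% held it, and among the genes tested 8.44%. TTGCATCA, a form of the site that ATF4 binds with C/EBP proteins, was found for 8 of 33 ATF4 amino acid response genes, against 0.666% of genes tested and 1.03% of all. TTTCCCGC or TTTGGCGC, both forms of the E2F site, were found for 13 of 37 DNA replication genes and 3 of 44 mitotic genes, against 3.78% of genes tested and 1.80% of all. A match describes the letters and is not evidence of binding. For each motif the sequences below are examples of list members called in both comparisons that hold it, not ranked by change. The motif is in capitals on whichever strand it lies.
Gbp2 (chr3:142620413-142620712, plus strand): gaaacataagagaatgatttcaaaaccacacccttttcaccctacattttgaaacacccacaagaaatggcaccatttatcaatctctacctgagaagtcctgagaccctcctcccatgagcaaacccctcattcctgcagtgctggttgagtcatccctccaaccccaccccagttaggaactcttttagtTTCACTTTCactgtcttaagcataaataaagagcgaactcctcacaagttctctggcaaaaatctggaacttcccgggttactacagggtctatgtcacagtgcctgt
Igtp (chr11:58199306-58199605, plus strand): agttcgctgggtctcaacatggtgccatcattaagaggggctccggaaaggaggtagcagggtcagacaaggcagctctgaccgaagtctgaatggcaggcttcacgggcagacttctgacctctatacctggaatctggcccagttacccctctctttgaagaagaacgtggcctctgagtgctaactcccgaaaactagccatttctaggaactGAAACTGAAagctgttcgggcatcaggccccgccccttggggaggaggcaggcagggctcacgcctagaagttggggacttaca
Bst2 (chr8:71537423-71537722, minus strand): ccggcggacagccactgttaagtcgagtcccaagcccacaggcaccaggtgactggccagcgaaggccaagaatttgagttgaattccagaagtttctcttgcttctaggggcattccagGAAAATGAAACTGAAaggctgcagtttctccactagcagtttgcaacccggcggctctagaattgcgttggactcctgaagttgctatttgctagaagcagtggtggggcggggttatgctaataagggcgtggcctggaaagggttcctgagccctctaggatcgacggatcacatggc
B2m (chr2:122147437-122147736, plus strand): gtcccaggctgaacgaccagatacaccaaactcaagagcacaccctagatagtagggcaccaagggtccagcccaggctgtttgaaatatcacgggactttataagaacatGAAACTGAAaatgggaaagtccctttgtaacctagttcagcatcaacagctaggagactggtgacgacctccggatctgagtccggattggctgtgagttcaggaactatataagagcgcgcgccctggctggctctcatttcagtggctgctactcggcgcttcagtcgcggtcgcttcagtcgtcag
Chac1 (chr2:119350992-119351291, plus strand): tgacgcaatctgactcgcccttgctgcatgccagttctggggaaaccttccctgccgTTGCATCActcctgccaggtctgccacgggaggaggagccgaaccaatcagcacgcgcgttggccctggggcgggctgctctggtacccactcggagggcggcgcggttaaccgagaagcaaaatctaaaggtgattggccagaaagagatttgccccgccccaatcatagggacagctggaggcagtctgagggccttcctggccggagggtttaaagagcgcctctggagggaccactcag
Pycr1 (chr11:120643699-120643998, minus strand): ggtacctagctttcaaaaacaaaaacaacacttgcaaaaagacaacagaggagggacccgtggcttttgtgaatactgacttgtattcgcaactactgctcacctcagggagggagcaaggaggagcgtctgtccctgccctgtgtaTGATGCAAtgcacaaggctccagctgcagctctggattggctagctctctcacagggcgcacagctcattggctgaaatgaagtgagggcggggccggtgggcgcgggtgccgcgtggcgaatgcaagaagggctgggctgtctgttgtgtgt
Pole2 (chr12:69228141-69228440, minus strand): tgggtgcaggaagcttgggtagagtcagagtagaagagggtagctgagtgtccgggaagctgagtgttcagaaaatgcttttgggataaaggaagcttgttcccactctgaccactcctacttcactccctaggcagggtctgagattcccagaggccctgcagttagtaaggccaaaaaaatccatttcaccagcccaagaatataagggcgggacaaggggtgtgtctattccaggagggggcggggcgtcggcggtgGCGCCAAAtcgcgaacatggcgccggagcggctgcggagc
Rfc3 (chr5:151651159-151651458, minus strand): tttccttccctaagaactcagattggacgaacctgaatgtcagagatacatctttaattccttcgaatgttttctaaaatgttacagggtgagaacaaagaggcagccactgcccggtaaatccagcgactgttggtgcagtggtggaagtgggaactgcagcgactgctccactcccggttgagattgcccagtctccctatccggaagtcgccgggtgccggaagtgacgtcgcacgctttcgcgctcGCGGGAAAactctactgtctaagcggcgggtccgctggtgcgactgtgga
Counted from the start site as 0, the interferon motif begins at -58 in Gbp2, -34 in Igtp and -139 in B2m, and Bst2 has 2 that overlap. The ATF4 motif begins at -193 in Chac1 and -103 in Pycr1, and the E2F motif at 10 in Pole2 and 0 in Rfc3.

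MHC class I presentation was raised at every step of the pathway, that is the proteasome, the peptide transporter, the loading complex and the heavy and light chains. Of 22 genes tested, 18 were called higher and none lower, in each of the 2 comparisons, with a median change of 2.37 and 2.28. Of the 22, 6 passed the filter through the in vivo libraries and so could hardly be called lower. Among the 16 with a mean of at least 1 FPKM in vitro, 12 were higher against 3 libraries and none lower. The immunoproteasome subunits Psmb8 and Psmb9 were at 126, 236, 76.2, 57.6 and 113 FPKM in vivo, against 0.137, 0 and 0 FPKM in vitro and at 49.7, 66.6, 29.1, 21.0 and 46.0 FPKM in vivo, against 0.0456, 0 and 0 FPKM in vitro. Tap1, a chain of the transporter that carries peptides into the endoplasmic reticulum, was at 57.4, 79.2, 34.3, 25.5 and 54.7 FPKM in vivo, against 0.0341, 0.0541 and 0.0123 FPKM in vitro. These genes were near 0 in culture, and they lie side by side with class II genes in the MHC on chromosome 17 (Psmb8 at chr17:34198195-34201454 and Tap1 at chr17:34187556-34197225). Tapbp, tapasin, which helps load peptides, was already expressed in culture, at 168, 163, 104, 139 and 142 FPKM in vivo, against 8.05, 14.0 and 9.18 FPKM in vitro. The heavy chains H2-K1 and H2-D1 were at 411, 664, 236, 172 and 418 FPKM in vivo, against 6.39, 5.62 and 2.55 FPKM in vitro and at 646, 949, 452, 313 and 578 FPKM in vivo, against 29.9, 46.9 and 13.4 FPKM in vitro. H2-Q7, a nonclassical heavy chain, was at 54.0, 118, 32.7, 22.2 and 44.5 FPKM in vivo and was listed at 0 in the 3 in vitro libraries. B2m, the light chain, was among the most abundant RNAs, at 3199.8, 4444, 2493, 2123 and 5296 FPKM in vivo, against 209, 309.6 and 236 FPKM in vitro. Log2 changes were 5.94 for H2-K1, 5.53 for Tap1, 3.68 for Tapbp and 3.73 for B2m (limma, adjusted p = 5.89e-06, 1.57e-06, 3.14e-06 and 1.87e-05). For H2-K1, in vivo library 2 was highest and library 4 lowest, as for Tap1 and H2-D1. The 4 that were not called in either comparison were H2-M3, H2-T24, Psme2 and the chaperone Pdia3, with changes of -0.49, 0.44, -0.45 and 0.13.

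MHC class II genes, which professional antigen-presenting cells use and which many epithelial cells make under interferon gamma, were near 0 in culture and present in all 5 in vivo libraries. Of 11 listed 6 were tested, all through their in vivo values, and all 6 were called higher in both comparisons. Cd74, the invariant chain that guides class II molecules, was at 283, 248, 86.9, 65.2 and 86.7 FPKM in vivo, against 0.0231, 0 and 0.0257 FPKM in vitro. H2-Ab1, a class II beta chain, was at 72.4, 74.6, 25.7, 21.9 and 25.3 FPKM in vivo and was listed at 0 in the 3 in vitro libraries, and H2-Aa, the alpha chain, at 61.9, 54.5, 22.2, 19.9 and 17.4 FPKM in vivo and was listed at 0 in the 3 in vitro libraries. The 3 genes were highest in in vivo libraries 1 and 2. The same RNAs are abundant in macrophages and dendritic cells, so markers of these cells were measured in the same libraries. Tyrobp, a signaling adaptor of myeloid cells, was at 2.48, 0.880, 7.37, 5.29 and 0.398 FPKM in vivo and was listed at 0 in the 3 in vitro libraries, and Lyz2, the lysozyme of macrophages, at 28.9, 9.27, 84.5, 66.4 and 2.76 FPKM in vivo, against 0, 0 and 0.0676 FPKM in vitro, both highest in libraries 3 and 4, where Cd74 was at 86.9 and 65.2 FPKM. C1qa, of tissue macrophages, was at 0.818, 0.343, 4.18, 3.77 and 0.707 FPKM in vivo and was listed at 0 in the 3 in vitro libraries, and the pan-leukocyte marker Ptprc at 0.0928, 0.0923, 0.406, 0.376 and 0.118 FPKM in vivo and was listed at 0 in the 3 in vitro libraries. Of 22 macrophage and monocyte markers, 7 were tested, 4 were higher and 1 lower (0 and 2 against library 2), with a sum of 41.9 to 199 FPKM in vivo, against 50.4 to 71.8 FPKM in vitro. Of these 7, 4 passed the filter through the in vivo libraries and so could hardly be called lower. Of the 3 with a mean of at least 1 FPKM in vitro, none was higher against 3 libraries and 1 was lower. The part of macrophages and dendritic cells in the class II values was not tested. In a sorted pool, fewer cells of a type and less RNA per cell cannot be told apart.

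Among immune checkpoint ligands and related genes, 6 of 11 tested were called higher and 1 lower (5 and 1 against library 2). Ido1, an enzyme that breaks down tryptophan and so restrains T cells, was at 29.0, 41.7, 15.0, 17.0 and 57.0 FPKM in vivo, against 1.12, 0.376 and 1.13 FPKM in vitro, a change of 3.99 (limma, adjusted p = 5.41e-05). Cd274, which encodes PD-L1, was at 4.51, 6.78, 2.83, 2.53 and 4.02 FPKM in vivo, against 1.02, 1.07 and 0.483 FPKM in vitro, higher in each in vivo library than in culture by a change of 1.42 that was not called against library 2 (adjusted p = 0.06). 4632428N05Rik, which encodes the checkpoint protein VISTA, was at 4.48, 4.53, 2.02, 7.71 and 6.13 FPKM in vivo, against 0.0259, 0.0158 and 0.173 FPKM in vitro. Pvr, the poliovirus receptor, which binds the checkpoint receptor TIGIT, went the other way and was lower in vivo, at 17.3, 18.4, 18.9, 21.5 and 11.1 FPKM in vivo, against 38.0, 70.6 and 31.8 FPKM in vitro.

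The complement components called higher in vivo were all below 1 FPKM in every in vitro library, and so could hardly be called lower. Of the 3 tested with a mean of at least 1 FPKM in vitro, none was higher against 3 libraries and 1 was lower. Of 29 components listed, 14 were under 1 FPKM in every library. Of 9 components tested, 6 were called higher and 1 lower against 3 libraries, and 3 higher against library 2, and 6 of the 9 passed the filter through the in vivo libraries. C3, on which the pathways converge, was at 19.8, 65.4, 13.0, 17.4 and 11.9 FPKM in vivo, against 0.0138, 0.0223 and 0.0155 FPKM in vitro. C4b, of the classical pathway convertase, was at 18.9, 56.8, 20.6, 11.8 and 8.01 FPKM in vivo, against 0.0158, 0.00424 and 0.0117 FPKM in vitro. Cfb, factor B of the alternative pathway, was at 15.2, 44.8, 11.999, 31.7 and 9.27 FPKM in vivo, against 0.138, 0.0821 and 0.477 FPKM in vitro. In vivo library 2 had the most C3 and C4b, and every in vivo library was above culture. Their log2 changes of 4.40, 4.27 and 4.04 (limma, adjusted p = 6.1e-05, 8.54e-05 and 7.91e-05) held against library 2. C1s1, a serine protease of C1, was at 13.6, 36.2, 5.81, 9.81 and 2.16 FPKM in vivo, against 0.0510, 0.0505 and 0.0696 FPKM in vitro, and C2, its substrate, at 1.09, 3.63, 0.264, 6.39 and 1.082 FPKM in vivo, against 0.0465, 0.00952 and 0.0130 FPKM in vitro. Both were called higher only against 3 libraries. C4a, the near-identical neighbor of C4b, was under 1 FPKM in every library, and reads shared by the pair may have been assigned to either. Masp1, a protease of the lectin pathway, was the component called lower, against 3 libraries only, at 1.01, 0.117, 0.465, 1.43 and 0.0885 FPKM in vivo, against 2.94, 3.27 and 7.53 FPKM in vitro.

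Of the proteins that restrain complement, Serping1, the C1 inhibitor, was at 13.2, 37.2, 6.14, 9.65 and 21.0 FPKM in vivo, against 0, 0.0145 and 0.0202 FPKM in vitro. It was called in both comparisons, with a log2 change of 3.94 (limma, adjusted p = 9.14e-05). Cr1l, which encodes the membrane regulator Crry of rodents, was lower in vivo, at 21.2, 21.0, 24.6, 18.2 and 16.6 FPKM in vivo, against 89.8, 37.3 and 85.5 FPKM in vitro. Cd55 was at most 0.0467 FPKM in any library, and Cd59a and Cd59b at most 0.578 FPKM, so none of the 3 could be tested.

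Chemokines divided. Of 15 chemokines tested, the CX3C chemokine Cx3cl1 among them, 6 were higher and 5 lower against 3 libraries. The median change was 1.71 against 3 libraries and 1.91 against library 2. The ligands of CXCR3, which draw T cells, rose: Cxcl9 was at 32.6, 43.5, 5.38, 18.0 and 53.7 FPKM in vivo, against 0, 0.00946 and 0 FPKM in vitro, and Cxcl10 at 21.9, 22.01, 4.05, 10.1 and 33.2 FPKM in vivo, against 1.20, 2.202 and 0.782 FPKM in vitro. In vivo library 3 had the least of both. Cxcl9 was called in both comparisons and Cxcl10 only against 3 libraries (2.31 against library 2, limma, adjusted p = 0.0932). Cx3cl1, fractalkine, was at 27.1, 22.5, 22.01, 33.4 and 25.9 FPKM in vivo, against 2.74, 6.15 and 7.63 FPKM in vitro, and Cxcl16 at 9.47, 14.2, 3.57, 29.6 and 20.8 FPKM in vivo, against 1.37, 0.3004 and 2.29 FPKM in vitro. The ligands of CXCR2, which draw neutrophils, had lower values or overlapped: Cxcl1 was at 15.98, 14.8, 9.16, 10.98 and 15.0 FPKM in vivo, against 46.5, 23.5 and 76.0 FPKM in vitro, and Cxcl5 at 62.9, 41.3, 40.5, 25.9 and 4.94 FPKM in vivo, against 127, 52.0 and 179.8 FPKM in vitro. The falls of Cxcl1 and Cxcl5, -1.69 and -1.92, were called against 3 libraries (limma, adjusted p = 0.00171 and 0.0308) and not against library 2. Ccl25, a chemokine of thymus and gut, was lower in both comparisons, at 3.01, 2.77, 3.03, 3.84 and 2.63 FPKM in vivo, against 47.6, 16.9 and 14.6 FPKM in vitro. Ccl2, which draws monocytes, was at 71.0, 8.65, 0.640, 16.6 and 126 FPKM in vivo, against 0.640, 0.720 and 5.87 FPKM in vitro, and was not called (limma, adjusted p = 0.0582).

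Areg, amphiregulin, a ligand of the EGF receptor, was at 36.5, 21.5, 33.6, 46.1 and 36.9 FPKM in vivo, against 398, 450.5 and 165 FPKM in vitro. The ligands Ereg, epiregulin, and Hbegf, heparin-binding EGF, were named with it for their role: Ereg was at 29.6, 39.5, 25.4, 21.2 and 17.3 FPKM in vivo, against 103, 102 and 33.8 FPKM in vitro, and Hbegf at 46.3, 39.8, 61.9, 48.8 and 53.7 FPKM in vivo, against 142, 305 and 111 FPKM in vitro. Ereg overlapped through in vitro library 3. All 3 were called in both comparisons, with log2 changes of -3.15, -1.43 and -1.75 (limma, adjusted p = 7.74e-05, 0.00816 and 0.000844). Of the other EGF receptor ligands tested, Btc was called lower against 3 libraries only (-1.34, and -1.32 against library 2) and Tgfa in neither comparison (0.02 and -0.91). Among 33 cytokines and growth factors, 7 were higher and 10 lower (5 and 7 against library 2). Gdf15, a stress cytokine of the TGF-beta family, was at 7.44, 10.1, 4.69, 10.3 and 8.97 FPKM in vivo, against 178, 183 and 68.5 FPKM in vitro, a change of -3.87. The TGF-beta isoforms moved the other way: Tgfb3 was at 34.4, 20.1, 20.3, 26.7 and 36.5 FPKM in vivo, against 1.61, 3.59 and 2.59 FPKM in vitro, and Tgfb1 at 61.7, 43.9, 61.6, 157 and 109.9 FPKM in vivo, against 8.55, 22.9 and 13.3 FPKM in vitro, with the most Tgfb1 in in vivo library 4. Tgfb3 was called in both comparisons and Tgfb1 only against 3 libraries. Il33, an alarmin of epithelium, was at 18.5, 11.2, 34.5, 17.0 and 2.42 FPKM in vivo, against 85.9, 89.7 and 26.8 FPKM in vitro, and was called lower against 3 libraries only.

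Acute-phase and antimicrobial proteins, most of them products of the liver that inflamed epithelium also makes, were higher in 11 of 14 tested (7 of 14 against library 2), with none lower and a median change of 3.42 and 3.50. Of the 14, 7 were kept by the filter because of the in vivo libraries. Lcn2, lipocalin 2, which withholds iron from bacteria, was at 95.7, 311, 70.7, 124 and 24.8 FPKM in vivo, against 4.98, 1.77 and 1.43 FPKM in vitro. Saa3, serum amyloid A3, was at 78.0, 293, 34.7, 39.0 and 4.62 FPKM in vivo, against 0.860, 0.150 and 1.64 FPKM in vitro, and Hp, haptoglobin, at 13.9, 57.0, 22.9, 29.96 and 2.34 FPKM in vivo, against 0.0401, 0.0780 and 0.282 FPKM in vitro. In each, in vivo library 2 was the highest and library 5 the lowest, the order also seen in C1s1 and C4b. The changes were 4.76, 4.66 and 4.03 (limma, adjusted p = 0.000222, 0.00201 and 0.000887), and that of Saa3 was not called against library 2.

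**Figure D3:**
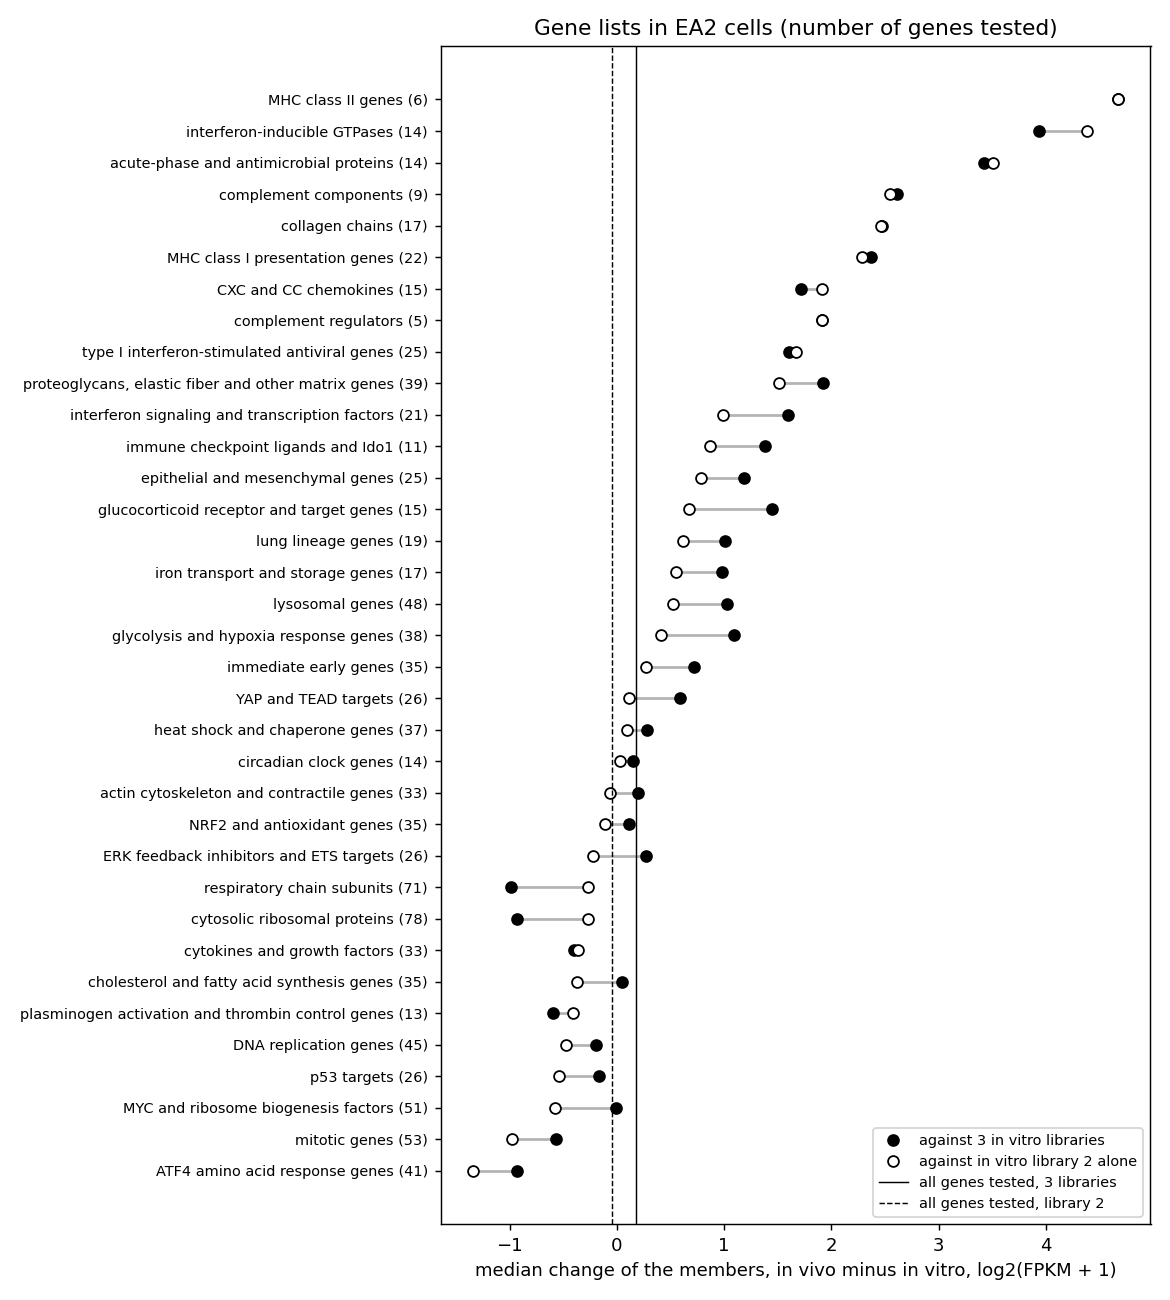
Median change of the tested members of each pathway list, in vivo minus in vitro, in log2(FPKM + 1), against all 3 in vitro libraries (filled) and against in vitro library 2 alone (open), with the number of genes tested after each name. Vertical lines mark the median of all genes tested, 0.18 (solid) and -0.05 (dashed). Interferon, MHC, complement, acute-phase and collagen lists lie to the right of these lines in both, with interferon signaling at 1.60 and 0.99. Many of their members passed the filter only through the in vivo libraries and could hardly be lower. These were 6 of 6 MHC class II, 6 of 9 complement, 9 of 14 GTPase, 7 of 14 acute-phase and 7 of 17 collagen genes. The same held for 9 of 25 antiviral, 6 of 22 MHC class I and 5 of 21 interferon signaling genes. The ATF4 list is the lowest of these pathway lists against library 2 at -1.34, and the ribosomal protein and respiratory chain lists move from -0.93 and -0.99 to -0.27.

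Matrix genes were higher in the cells from tumors. Of those tested, 7 of 17 collagen chains and 8 of 39 other matrix genes passed the filter through the in vivo libraries. Among chains with a mean of at least 1 FPKM in vitro, 6 of 7 were higher against 3 libraries and none lower. Of the other matrix genes at that level, 21 of 31 were higher and 4 lower. Of 17 collagen chains tested, 14 were called higher and none lower against 3 libraries and 8 and none against library 2, and of 39 proteoglycans, elastic fiber and other matrix genes 29 were higher and 4 lower (24 and 2). Fn1, fibronectin, was at 2252, 2502, 2226, 2306 and 3057 FPKM in vivo, against 143, 336 and 183 FPKM in vitro. Col6a1 and Col6a2, chains of the collagen VI network around cells, were at 177, 144, 185, 511 and 309 FPKM in vivo, against 1.67, 1.079 and 4.98 FPKM in vitro and at 90.9, 79.1, 86.7, 256 and 103 FPKM in vivo, against 0.150, 0.145 and 0.744 FPKM in vitro. Dcn, decorin, a proteoglycan that binds collagen, was at 306, 769, 333, 643 and 481 FPKM in vivo, against 2.503, 0.369 and 19.1 FPKM in vitro. These 4 genes were higher in every in vivo library than in any in vitro library, with log2 changes of 3.56, 6.21, 6.40 and 6.70 (limma, adjusted p = 1.14e-05, 6.39e-06, 1.46e-06 and 6.13e-05). Prelp, another small proteoglycan, was at 62.8, 112, 51.5, 21.2 and 83.3 FPKM in vivo, against 0.0398, 0.00620 and 0.0264 FPKM in vitro, and Lox, the enzyme that crosslinks collagen, at 16.6, 17.3, 14.5, 11.1 and 39.3 FPKM in vivo, against 0.199, 0.0965 and 0.433 FPKM in vitro. Mmp14, a membrane protease that degrades collagen, was at 139, 128, 100.9, 126 and 168 FPKM in vivo, against 17.8, 28.5 and 17.9 FPKM in vitro. Mmp13 and Mmp10, secreted proteases, were lower against 3 libraries and not against library 2: Mmp13 was at 20.5, 60.2, 266, 72.6 and 4.55 FPKM in vivo, against 213, 374 and 272 FPKM in vitro, and in vivo library 3 reached the level of culture.

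Fibroblasts make many of the same RNAs. Markers of fibroblasts were measured beside them, and 3 of the 8 tested passed the filter through the in vivo libraries. Of 8 tested 6 were higher against 3 libraries and 2 against library 2, and the sum over 20 markers was 457 to 1074 FPKM in vivo, against 55.0 to 119 FPKM in vitro, most of the in vivo sum from Dcn and Gsn. Defining markers were low or uneven: Pdgfra was at most 1.52 FPKM and Lum at most 0.108 FPKM in any library. Col1a1 was at 6.41, 2.82, 15.4, 102 and 2.13 FPKM in vivo, against 0.0496, 0.0149 and 0.487 FPKM in vitro and Col3a1 at 29.4, 1.05, 6.34, 24.4 and 0.548 FPKM in vivo and was listed at 0 in the 3 in vitro libraries, with the most Col1a1 in in vivo library 4. In in vivo library 2, with 1.05 FPKM of Col3a1, Dcn was at 769 and Fn1 at 2502 FPKM, and in library 5, with 0.548 FPKM of Col3a1, Col6a2 was at 103 FPKM. Without in vivo library 4, 13 collagen chains were called higher against 3 libraries. The part of fibroblasts in these values was not tested.

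Of 25 epithelial and mesenchymal genes tested, 18 were higher and 2 lower (11 and 1 against library 2). Jup, plakoglobin of cell junctions, was at 56.4, 44.9, 44.7, 54.0 and 64.0 FPKM in vivo, against 1.48, 2.53 and 3.43 FPKM in vitro, and Itgb4, the integrin of hemidesmosomes, at 19.3, 30.8, 5.78, 18.1 and 15.6 FPKM in vivo, against 0.280, 0.119 and 0.326 FPKM in vitro. Snai1, a repressor of epithelial genes, was at 32.2, 31.0, 30.8, 23.7 and 47.7 FPKM in vivo, against 1.78, 3.19 and 2.95 FPKM in vitro, while its relative Snai2 was at 6.30, 9.70, 6.15, 10.1 and 3.35 FPKM in vivo, against 33.8, 56.3 and 25.2 FPKM in vitro. The pair thus moved in opposite directions, by 3.21 and -2.28 (limma, adjusted p = 8.59e-06 and 0.000366), each called against library 2. Vim, vimentin, was at 2327, 1955, 2028, 1945 and 1878 FPKM in vivo, against 523, 864 and 845 FPKM in vitro. Krt19, a keratin, was at 32.3, 32.5, 109, 31.4 and 6.67 FPKM in vivo, against 143, 262 and 61.0 FPKM in vitro, with in vivo library 3 above the lowest in vitro library. Nkx2-1, which defines lung adenocarcinoma of alveolar type, was under 1 FPKM in every library, and Epcam at most 2.04 FPKM. Sox9, a factor of distal lung progenitors, was at 52.4, 57.9, 32.5, 55.6 and 136 FPKM in vivo, against 12.5, 27.5 and 9.95 FPKM in vitro and was called higher only against 3 libraries.

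Proteins that control clotting at the cell surface were lower in vivo. Thbd, thrombomodulin, which turns thrombin into an anticoagulant, was at 3.11, 0.798, 1.62, 6.34 and 2.11 FPKM in vivo, against 37.8, 69.2 and 43.4 FPKM in vitro. Procr, the receptor of protein C, which works with it, was at 11.3, 7.97, 13.7, 21.6 and 3.14 FPKM in vivo, against 65.4, 109 and 70.3 FPKM in vitro. Plau, urokinase, was at 30.7, 14.8, 34.2, 38.8 and 18.2 FPKM in vivo, against 96.5, 127 and 117 FPKM in vitro. Their log2 changes were -3.87, -2.89 and -2.10 (limma, adjusted p = 6.07e-05, 0.000486 and 0.000358) and -4.38, -3.34 and -2.26 against library 2. Of the list of 13, 5 were lower in each comparison, and 2 higher against 3 libraries and none against library 2. Plat, the tissue plasminogen activator, was among those called higher. Ptgs2, cyclooxygenase 2, also fell, at 12.6, 8.40, 19.3, 13.6 and 4.08 FPKM in vivo, against 102, 283 and 50.6 FPKM in vitro.

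Readouts of ERK signaling, on which an ALK-driven cell depends, did not move as a group: 7 of 26 feedback inhibitors and targets were higher and 5 lower, and 2 and 6 against library 2. Dusp6, an ERK phosphatase that follows pathway output, was at 152, 208, 154, 198 and 155 FPKM in vivo, against 102, 142 and 133 FPKM in vitro, with a change of 0.46 (limma, adjusted p = 0.0772). Spry2, a feedback inhibitor, was at 22.2, 33.2, 24.4, 27.1 and 26.9 FPKM in vivo, against 32.2, 31.7 and 32.7 FPKM in vitro, with overlapping groups and a change of -0.27 (limma, adjusted p = 0.220). Phlda1 was lower in both comparisons, at 17.0, 16.1, 19.6, 36.0 and 22.4 FPKM in vivo, against 92.8, 203 and 74.2 FPKM in vitro, as was Dusp5, at 11.2, 8.39, 12.5, 12.5 and 10.9 FPKM in vivo, against 25.0, 56.7 and 17.1 FPKM in vitro. Ccnd1, cyclin D1, was at 51.0, 52.6, 59.6, 107 and 33.6 FPKM in vivo, against 83.3, 176 and 146 FPKM in vitro, a fall of 1.17 on the log2 scale, with in vivo library 4 above in vitro library 1. Myc was at 139, 140.0, 135, 74.2 and 195 FPKM in vivo, against 77.7, 234 and 59.2 FPKM in vitro, and neither comparison called it.

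Of 26 p53 targets, 4 were higher and 10 lower (1 and 9 against library 2). Plk2, a kinase of the stress response, was at 6.02, 4.54, 5.58, 6.42 and 3.83 FPKM in vivo, against 46.1, 78.9 and 32.9 FPKM in vitro, and Mdm2, the ubiquitin ligase of p53, at 15.9, 13.9, 16.7, 16.3 and 14.7 FPKM in vivo, against 34.2, 37.2 and 28.8 FPKM in vitro. Both were called lower in both comparisons, by 3.02 and 1.06 on the log2 scale. Cdkn1a, the p21 inhibitor, was at 10.4, 6.09, 6.38, 15.1 and 11.02 FPKM in vivo, against 8.83, 18.5 and 6.94 FPKM in vitro, with overlapping groups (limma, adjusted p = 0.704). Trp53 itself fell by 1.27 (limma, adjusted p = 0.000567).

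Genes of cell division were lower in vivo, more clearly so against library 2. Of 53 mitotic genes, 21 were lower and 1 higher against 3 libraries, and 31 lower and none higher against library 2, with a median change of -0.57 and -0.98. Cdk1, the kinase that starts mitosis, was at 27.4, 21.5, 26.6, 19.8 and 26.5 FPKM in vivo, against 107, 71.9 and 232 FPKM in vitro. Aurka, aurora kinase A, was at 18.9, 9.84, 17.4, 11.8 and 13.3 FPKM in vivo, against 32.3, 49.6 and 68.8 FPKM in vitro, and Ccnb1, cyclin B1, at 25.4, 14.4, 15.1, 9.67 and 16.9 FPKM in vivo, against 30.4, 47.6 and 65.3 FPKM in vitro. Their log2 changes were -2.28, -1.72 and -1.49 (limma, adjusted p = 0.000296, 0.000589 and 0.00222), and -1.53, -1.77 and -1.55 against library 2. Mad2l1, of the spindle checkpoint, was at 16.3, 16.4, 20.7, 17.0 and 12.7 FPKM in vivo, against 127, 55.5 and 279.9 FPKM in vitro, with in vitro library 2 the lowest of the 3. Mki67, the proliferation antigen, was at 9.17, 7.31, 9.72, 6.83 and 8.21 FPKM in vivo, against 1.65, 5.29 and 8.68 FPKM in vitro, and was not called in either comparison (0.75 and 0.55; adjusted p = 0.0827 from limma against 3 libraries).

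DNA replication genes differed between the comparisons. Of 45, 19 were lower and 6 higher against 3 libraries, whereas 12 were lower and none higher against library 2. Pole2, a subunit of DNA polymerase epsilon, was at 12.4, 8.73, 10.7, 5.31 and 9.84 FPKM in vivo, against 53.9, 36.0 and 49.7 FPKM in vitro, and Gins1, of the replicative helicase, at 14.5, 8.32, 13.3, 10.8 and 10.5 FPKM in vivo, against 42.9, 28.8 and 60.7 FPKM in vitro. Rfc3, of the clamp loader, was at 44.0, 43.4, 47.7, 35.8 and 43.9 FPKM in vivo, against 200.3, 75.8 and 181 FPKM in vitro. These 3 were lower in both comparisons. Mcm4, of the helicase ring, was at 70.9, 62.2, 62.0, 49.6 and 69.0 FPKM in vivo, against 21.4, 63.1 and 27.8 FPKM in vitro, and Dnmt1, the maintenance DNA methyltransferase, at 22.8, 20.3, 21.7, 14.9 and 28.0 FPKM in vivo, against 7.12, 18.3 and 11.6 FPKM in vitro. Mcm4, Dnmt1, Uhrf1, Lig1, Rfc1 and Chaf1a were the 6 called higher, and for each in vitro library 2 was closer to the in vivo libraries than in vitro libraries 1 and 3 were. The change of Mcm4 was 0.87 with 3 libraries and -0.02 with library 2. Of 16 replication-dependent histone genes, whose RNAs mostly lack a polyA tail, 2 were higher and 7 lower (2 and 4 against library 2), and 3 were higher and 3 lower with the length trend removed.

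**Figure D4:**
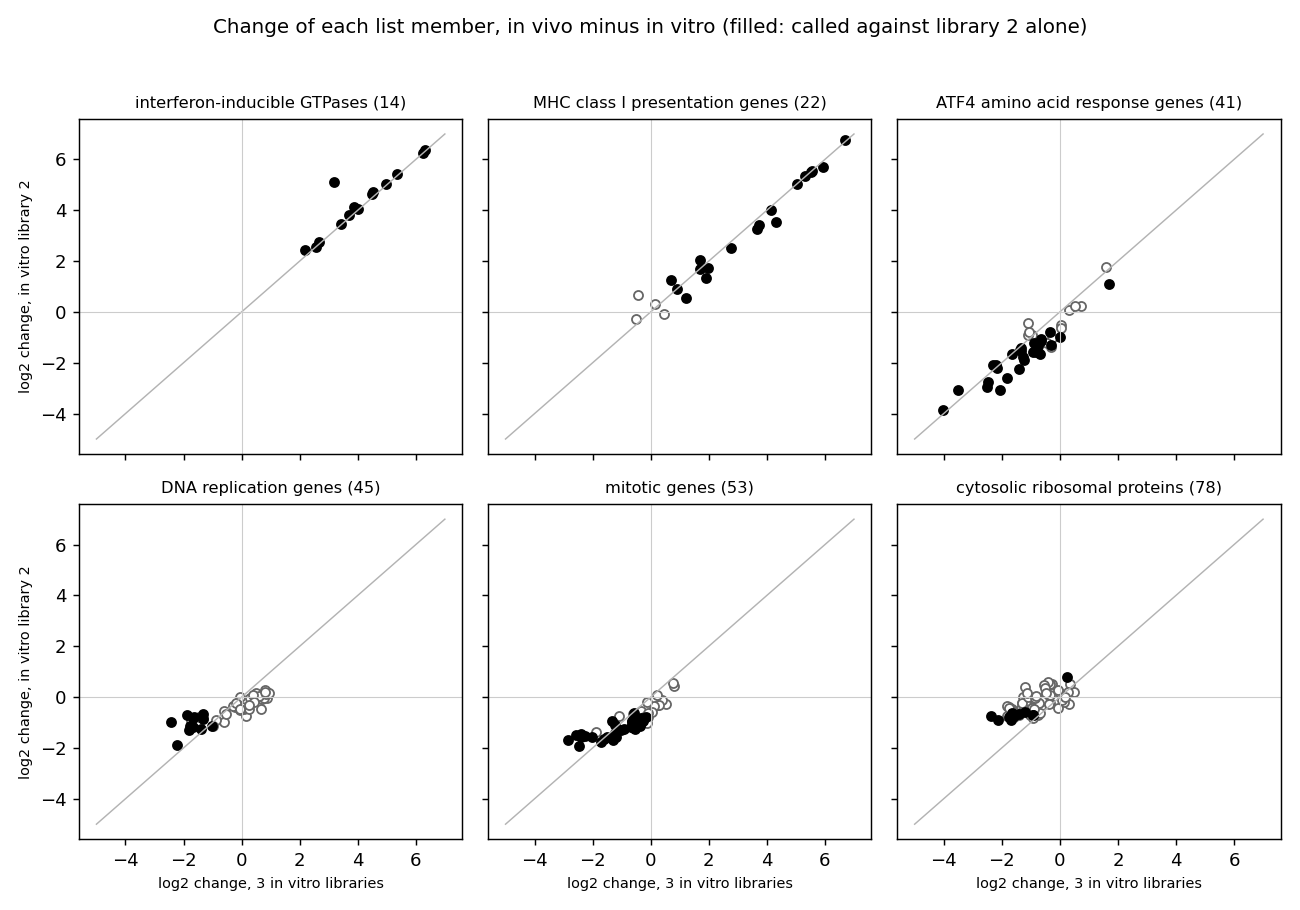
Change of each tested member of 6 gene lists, in vivo minus in vitro in log2(FPKM + 1), against all 3 in vitro libraries (horizontal axis) and against in vitro library 2 alone (vertical axis), with filled symbols for genes called against library 2 and a diagonal of equal change. The GTPase and MHC class I genes lie on or near the diagonal, most ATF4 and mitotic genes are below 0 on both axes, and the ribosomal protein genes spread along the horizontal axis while 11 of 78 are called lower against library 2.

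Ribosomal protein and respiratory chain genes (median transcript 910 and 875 nt) had medians below that of all genes tested, by more against 3 libraries than against library 2. Against library 2 the shares called lower were near the background given above. With the length trend removed, 27 of 78 ribosomal protein genes were lower and 9 higher. Over all 11021 genes of that fit, 3072 were lower and 2867 higher, with a median of -0.008. In the same fit 24 of 71 respiratory chain genes were lower and 4 higher, and the medians of the 2 lists were -0.25 and -0.26. The cause was not tested. Of 78 ribosomal protein genes 53 were lower and none higher against 3 libraries, and 11 were lower and 1 higher against library 2, with a median change of -0.93 and -0.27. Rps12 was at 301, 310.0, 399, 309 and 340.2 FPKM in vivo, against 2496, 617 and 2027 FPKM in vitro, and Rpl41 at 2799, 2765, 2809, 3379 and 2391 FPKM in vivo, against 13076, 3604 and 20159 FPKM in vitro. Of 71 respiratory chain genes 48 were lower and 3 higher against 3 libraries, and 13 lower and 1 higher against library 2, with a median of -0.99 and -0.27. Ndufa4 was at 128, 106, 134, 134 and 64.1 FPKM in vivo, against 898, 244 and 1465 FPKM in vitro, and its fall was not called against library 2 (adjusted p = 0.0626, limma). Sdha, whose transcript is longer, was called higher by 1.22 against 3 libraries, by 1.04 with the length trend removed and not against library 2 (0.30). Many of these genes also have processed pseudogenes that can take up reads. MYC targets and ribosome biogenesis factors were 10 higher and 16 lower of 51 (4 and 14 against library 2), with a median of -0.01 and -0.57. Odc1, ornithine decarboxylase, a direct MYC target, was at 81.3, 62.5, 77.1, 68.3 and 58.6 FPKM in vivo, against 228, 319 and 176 FPKM in vitro, lower in both, and Mxd4, an antagonist of MYC, was at 18.5, 15.0, 12.5, 18.5 and 24.5 FPKM in vivo, against 1.79, 1.91 and 6.75 FPKM in vitro, higher in both.

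The amino acid response of ATF4 was lower in tumors and is the pathway list with the lowest median against library 2. Of 41 genes tested 26 were lower and 3 higher against 3 libraries, and 27 lower and 1 higher against library 2, with a median change of -0.93 and -1.34. Atf4 was at 136, 93.6, 103, 110.3 and 135 FPKM in vivo, against 539, 534 and 459.7 FPKM in vitro. Asns, asparagine synthetase, was at 49.3, 51.3, 47.1, 24.5 and 39.0 FPKM in vivo, against 139, 347 and 108 FPKM in vitro, and Psph, the last enzyme of serine synthesis, at 21.3, 19.1, 16.1, 14.2 and 19.6 FPKM in vivo, against 314, 156 and 202 FPKM in vitro. Cth, which makes cysteine from cystathionine, was at 5.75, 6.51, 5.27, 3.21 and 2.07 FPKM in vivo, against 105, 75.7 and 79.6 FPKM in vitro. No in vivo value of these 4 genes reached the lowest in vitro value, and the log2 changes were -2.15, -2.06, -3.51 and -4.04 (limma, adjusted p = 3.67e-05, 0.00104, 5.89e-06 and 7.57e-06). For Asns the library 2 value of 347 FPKM was the highest in culture, and the change against it was -3.05. Trib3, a pseudokinase that inhibits ATF4, was at 25.7, 17.2, 14.0, 13.8 and 11.3 FPKM in vivo, against 111, 130.3 and 60.3 FPKM in vitro, Chac1, which degrades glutathione, at 5.90, 3.85, 3.73, 2.27 and 2.74 FPKM in vivo, against 20.8, 29.96 and 23.3 FPKM in vitro, and Ddit3, the factor CHOP, at 17.4, 13.9, 13.1, 11.5 and 11.7 FPKM in vivo, against 107, 59.5 and 41.8 FPKM in vitro. Mthfd2, of mitochondrial folate metabolism, was at 43.1, 38.4, 40.1, 21.6 and 25.2 FPKM in vivo, against 90.2, 199.6 and 91.8 FPKM in vitro. Against the direction of the list, Cebpb, a partner of ATF4 that inflammation also induces, was higher in both comparisons, at 223, 185, 147, 238 and 221 FPKM in vivo, against 61.1, 92.7 and 39.0 FPKM in vitro, and Slc38a2 and Cbs were higher against 3 libraries only.

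Genes of glycolysis and hypoxia were higher in part, with 20 of 38 higher and 2 lower against 3 libraries and 7 and none against library 2. Ndrg1, a hypoxia-responsive gene, was at 213, 251, 484, 156 and 191 FPKM in vivo, against 30.2, 73.9 and 14.6 FPKM in vitro, highest in in vivo library 3 and called in both comparisons (2.85 and 1.68). Car9, carbonic anhydrase 9, was at 7.09, 5.11, 9.31, 0.622 and 7.03 FPKM in vivo, against 0.481, 0.0662 and 0.677 FPKM in vitro. In vivo library 4 had as little Car9 as culture, and the gene was not called against library 2. The glycolytic enzymes Ldha and Pgk1 were at 976, 1033, 1182, 789 and 684 FPKM in vivo, against 1022, 1113 and 716 FPKM in vitro and at 724, 851, 1369, 534 and 749 FPKM in vivo, against 1539, 1487 and 974 FPKM in vitro, with overlapping groups and no call. Fasn, fatty acid synthase, was higher at 51.1, 52.5, 51.5, 44.0 and 51.3 FPKM in vivo, against 5.24, 12.1 and 11.2 FPKM in vitro, while Msmo1, of cholesterol synthesis, was lower at 51.8, 36.1, 50.9, 29.0 and 32.7 FPKM in vivo, against 179, 120.5 and 223 FPKM in vitro. The cholesterol and fatty acid list as a whole had 9 higher and 4 lower of 35 (4 and 3 against library 2).

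Among lysosomal genes 29 of 48 were higher and 4 lower (15 and 5 against library 2). Grn, progranulin, was at 224, 189.7, 176, 192 and 189 FPKM in vivo, against 23.6, 50.7 and 22.6 FPKM in vitro, and Ctsl, cathepsin L, was lower at 513, 382, 453, 563 and 559.5 FPKM in vivo, against 1456, 1235 and 1268 FPKM in vitro. Both were called in both comparisons. Ctss, the cathepsin of antigen-presenting cells, was at 8.82, 1.96, 21.1, 20.3 and 0.983 FPKM in vivo and was listed at 0 in the 3 in vitro libraries, highest in the libraries with the most Tyrobp. Of NRF2 and antioxidant genes 13 of 35 were higher and 8 lower (6 and 3). Hmox1, heme oxygenase, was lower at 27.8, 27.9, 30.1, 28.9 and 23.6 FPKM in vivo, against 47.4, 67.6 and 41.8 FPKM in vitro, and Gstm1, a glutathione transferase, higher at 90.6, 97.1, 61.4, 69.2 and 68.3 FPKM in vivo, against 4.25, 14.0 and 12.8 FPKM in vitro. Of 15 glucocorticoid receptor and target genes 10 were higher and none lower (5 and 1). Fkbp5, a chaperone of the receptor that glucocorticoids induce, was at 35.8, 41.8, 27.9, 39.9 and 38.1 FPKM in vivo, against 2.57, 9.64 and 4.24 FPKM in vitro, a change of 2.68 (limma, adjusted p = 0.000105) and of 1.81 against library 2. Of 17 iron genes 8 were higher and 1 lower (5 and 1), among them Steap4, a metal reductase, at 19.1, 40.6, 6.75, 8.15 and 7.83 FPKM in vivo, against 0.0393, 0.0427 and 0.120 FPKM in vitro. Of 14 circadian clock genes 3 were higher and 2 lower (0 and 1).

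Immediate early and heat shock genes can respond to tissue digestion and sorting, which only the in vivo cells went through, so handling and tumor growth cannot be told apart here. Of 35 immediate early genes 15 were higher and 6 lower (7 and 7 against library 2), and of 37 heat shock and chaperone genes 13 were higher and 7 lower (6 and 4). Fos was at 28.2, 38.1, 84.6, 31.2 and 361 FPKM in vivo, against 1.75, 8.13 and 1.084 FPKM in vitro, and Egr1 at 69.2, 75.3, 82.4, 56.1 and 435 FPKM in vivo, against 24.1, 64.2 and 29.7 FPKM in vitro. In vivo library 5 had by far the most of both. Egr1 was not called, Fos was called against 3 libraries only, and without it the other 4 in vivo libraries still had more Fos than any in vitro library. Hspa1b, an inducible HSP70, was at 42.0, 12.5, 10.4, 26.8 and 77.5 FPKM in vivo, against 1.65, 2.04 and 2.17 FPKM in vitro, with the same library highest, although reads shared with its near-identical copy may have been split. Jund and Klf2 were more even, at 148, 135, 115, 122 and 164 FPKM in vivo, against 24.3, 38.9 and 17.3 FPKM in vitro and at 68.6, 58.2, 48.4, 49.97 and 46.4 FPKM in vivo, against 7.47, 12.7 and 5.69 FPKM in vitro. Atf3 went against this direction, at 10.0, 4.52, 9.34, 4.36 and 12.7 FPKM in vivo, against 72.0, 36.7 and 21.5 FPKM in vitro, as did Nfkbiz, at 7.69, 9.87, 7.10, 6.78 and 12.8 FPKM in vivo, against 37.9, 22.1 and 25.8 FPKM in vitro. The cytosolic chaperonin gene Cct4 was lower, at 292, 264, 295, 279 and 285 FPKM in vivo, against 1009, 552 and 845 FPKM in vitro.

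The counts of actin and YAP genes were close to those of all genes in part. Of 33 actin genes 10 were higher and 6 lower (4 and 5 against library 2), shares at or near the background in both comparisons, and of 26 YAP and TEAD targets 10 were higher and 2 lower (4 and 1). Ankrd1, a classical YAP target, was lower in both comparisons, at 21.7, 27.4, 39.7, 23.3 and 7.79 FPKM in vivo, against 167, 277 and 139 FPKM in vitro, and Cyr61, another, lower only against 3 libraries, at 22.9, 16.4, 32.8, 19.8 and 89.7 FPKM in vivo, against 60.4, 145 and 74.9 FPKM in vitro. Ctgf was at 23.6, 50.2, 56.6, 83.6 and 63.8 FPKM in vivo, against 24.01, 47.4 and 52.6 FPKM in vitro, with overlapping groups and no call (limma, adjusted p = 0.406). Vcl, vinculin, was higher at 123, 127, 123, 111 and 114 FPKM in vivo, against 18.8, 55.6 and 32.5 FPKM in vitro, and Tpm1, a tropomyosin, lower at 264, 218, 295, 349.7 and 306 FPKM in vivo, against 453, 525 and 644 FPKM in vitro.

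Markers of B, T and NK cells and of neutrophils were low. Of 12 general leukocyte markers 6 were tested, with 4 called higher and 1 lower against 3 libraries. Of these 6, 3 passed the filter through the in vivo libraries. The rises were not called against library 2, whereas the fall was. The median change of the 6 was 1.26 against 3 libraries and 1.01 against library 2. The 12 summed to 8.54 to 116 FPKM in vivo, against 53.1 to 136 FPKM in vitro. Of 12 B and plasma cell markers none reached the filter, and their sum was at most 1.27 FPKM in any library. Of 20 T and NK cell markers 2 were tested, with a sum of 3.95 to 9.76 FPKM in vivo against 2.05 to 7.502 FPKM in vitro, and of 13 neutrophil markers 1 was tested, with a sum of 2.74 to 8.19 against 0.379 to 1.47 FPKM. The 20 endothelial markers summed to 12.1 to 63.2 FPKM in vivo, against 7.08 to 9.74 FPKM in vitro, with 2 of 6 tested called higher (1 against library 2). The 20 alveolar and airway markers summed to 246 to 375 FPKM in vivo, against 79.9 to 240 FPKM in vitro, with 4 of 9 higher and 1 lower (1 and 0 against library 2). Scgb1a1, the secretoglobin of club cells, was at 28.2, 10.3, 34.6, 152 and 18.7 FPKM in vivo and was listed at 0 in the 3 in vitro libraries, and Sftpc, the surfactant protein of type II cells, was at 0.312, 0.821, 10.2, 16.5 and 0.6997 FPKM in vivo, against 0.0933, 0 and 0 FPKM in vitro. Chil3, of alveolar macrophages, was at 17.6, 3.21, 23.2, 29.8 and 0.184 FPKM in vivo and was listed at 0 in the 3 in vitro libraries. Some markers belong to the cultured line itself: Mrc1, the mannose receptor, was at 4.26, 2.92, 6.43, 6.71 and 0.941 FPKM in vivo, against 10.2, 29.9 and 20.9 FPKM in vitro, and Cd53, a tetraspanin of leukocytes, at 31.1, 62.3, 83.4, 16.3 and 1.01 FPKM in vivo, against 132, 97.6 and 49.3 FPKM in vitro. Mcpt8, a protease known from basophils, was at 7.63, 11.9, 20.9, 13.8 and 1.37 FPKM in vivo, against 135, 59.9 and 131 FPKM in vitro, and Msln, mesothelin, at 46.8, 69.1, 50.5, 23.2 and 3.00 FPKM in vivo, against 173, 171 and 109 FPKM in vitro. For these the in vitro value bears on the cell line directly, since no host cell is present in the dish.

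The 5 in vivo libraries were alike for most genes. Among 8384 genes with an in vivo mean of at least 5 FPKM, the median SD of log2(FPKM + 1) over the 5 libraries was 0.215, and 171 genes (2.04%) had an SD above 1. The 10 genes of largest SD were all small nucleolar, Cajal body or micro RNAs, such as Scarna17, which was at 0, 0, 1324, 0 and 0 FPKM in vivo, against 299, 0 and 259.6 FPKM in vitro. Among genes with transcripts of 300 nt or more, a ranking chosen after the values were seen, the most variable was Fgb, a fibrinogen chain, at 1.80, 26.8, 38.4, 44.5 and 0 FPKM in vivo and was listed at 0 in the 3 in vitro libraries. Trib1, a pseudokinase, was at 236, 22.5, 12.5, 103 and 653 FPKM in vivo, against 10.5, 15.9 and 11.7 FPKM in vitro, with the same libraries high as for Ccl2. Krt8, a keratin of simple epithelium, was at 3.78, 22.3, 69.7, 41.4 and 0.583 FPKM in vivo, against 22.5, 93.3 and 32.1 FPKM in vitro. Clu, clusterin, was at 23.7, 87.8, 240.5, 125 and 5.35 FPKM in vivo, against 10.6, 15.0 and 34.2 FPKM in vitro. In vivo library 5 had the least Fgb, Krt8, Clu, Lyz2 and Chil3 and the most Fos, Egr1, Trib1 and Ccl2, and in vivo library 4 had the most Col1a1, Scgb1a1 and Fgb. Leaving out in vivo library 4 gave 3395 genes higher and 2599 lower, and leaving out library 5 gave 3500 and 2483.

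**Figure D5:**
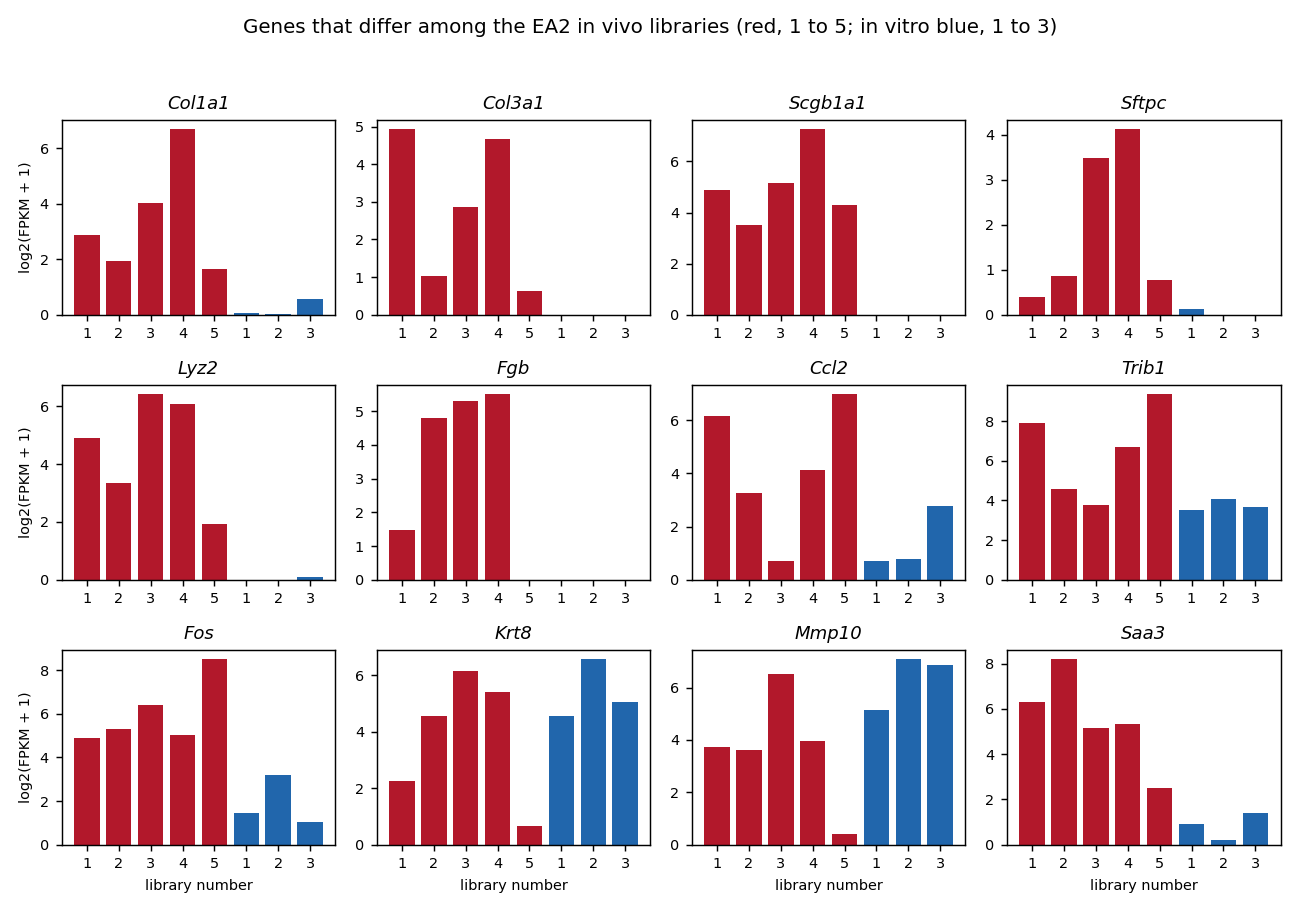
Levels of 12 genes that vary among tumor pools, as log2(FPKM + 1), with a bar for each in vivo library (red, 1 to 5) and each in vitro library (blue, 1 to 3). Col1a1 and Scgb1a1 are highest in in vivo library 4, Saa3 in library 2, and Ccl2, Trib1 and Fos in library 5, which has the least Krt8, Mmp10 and Lyz2.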

How the data were processed

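RNA was measured by stranded polyA RNA-seq. The authors deposited FPKM per gene, made with Cufflinks (2.0.2 in the submitters' processing notes) on mm10. Of 24347 entries, 27 whose names had become dates were left out, and 0 sample columns were unused. Groups came from the sample titles. FPKM carry no counts, so limma 3.58.1 in R 4.3.3 was fitted to log2(FPKM + 1) of genes that reached 1 FPKM in 3 or more libraries, with an intensity trend and Benjamini-Hochberg adjustment at 0.05, and again with in vitro library 2 as the only in vitro library. Tables were made with Python 3.11.15 and pandas 2.3.3. Gene positions are from GRCm38, the build of mm10, and promoters from RefSeq on GRCm38.p6. Alternatives were another pseudocount, other filters and scalings, removal of a transcript length trend, a replicate block and leaving out each library. A simulation drew independent normal noise for each gene with the same SD in both groups, and changed only genes with a mean log2(FPKM + 1) above 3. It held no length trend shared between libraries, so its false calls do not measure those among the reported calls. Tested on simulated data with 11074 genes, the fit with 3 in vitro libraries recovered 49 of 100 genes changed by 1 on the log2 scale and 93 of 100 changed by 2, with 8 false calls, and the fit with library 2 alone 1 and 37 of 100, with 2 false calls.

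Genes were named by rule: the 10 largest rises and falls among genes whose groups do not overlap, the same among genes with a mean of at least 5 FPKM in both groups, the 4 called genes of largest change in each list, members called against their list, genes the study names and the 10 of largest spread in vivo. Not every gene of the rule is printed, and others were named for their role after their values were seen. The members and lists were chosen with earlier results of these data known. Some genes of the rule are not reported here.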

Additional observations from a re-analysis of the deposited data

Results flagged for a closer look

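In 191 genes named in the text, the highest or lowest of the 5 in vivo libraries was compared with the gap to its neighbor, and 6 genes had a library whose gap to the nearest other was large for the range of the 5, which for Fasn was narrow. Chance flags about 1 in 20 groups. In vivo library 4 stood apart below the others for Car9 (0.622 FPKM), Fasn (43.95 FPKM) and Rfc1 (8.657 FPKM), and above them for Col6a2 (255.9 FPKM). In vivo library 3 stood apart below the others for Hopx (0.736 FPKM), and in vivo library 5 above them for Egr1 (435.3 FPKM).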

How the results depend on the processing

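The counts of calls moved most with in vitro library 2 as the only in vitro library, where 1603 genes were higher and 1667 lower, against 3643 and 2702 with 3 in vitro libraries. Without the filter on low values the library 2 comparison gave 787 higher and 1098 lower. Leaving out 1 library gave 2562 to 4602 genes higher and 2223 to 2900 lower, and 1091 to 1674 higher and 1153 to 1787 lower against library 2. On the strand of the gene alone, the interferon motif was in 50% of the GTPase promoters, against 90% on both strands, and the E2F motif in 13.5% of the DNA replication promoters, against 35.1%. The median of all genes was 0.18 as reported, -0.01 after median-of-ratios scaling and -0.01 with the length trend removed. Against library 2 the direction of Eml4 (-0.0045) and Mcm4 (-0.02) turned, and of 176 genes named and called, 126 kept call and direction and 50 lost the call. The cause was not tested.

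With the replicate number as a block, 3088 genes were higher and 2137 lower. Deviations of libraries with the same number correlated at -0.018, 0.0066 and -0.131, and with different numbers at -0.149 to 0.154. Whether the numbers pair the libraries cannot be told from this, because the length trend of the in vitro libraries enters the deviations. With 1 line, an unknown depth and no counts, values near 0 are imprecise.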

Other observations

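Of 19 lung lineage genes tested, 11 were called higher and 1 lower against 3 in vitro libraries, and 3 and none against library 2, with 8 of the 19 kept by the filter because of the in vivo libraries. Cebpa, a factor of alveolar type II cells, was at 2.93, 2.56, 1.89, 4.28 and 1.83 FPKM in vivo, against 0.322, 0.523 and 0.554 FPKM in vitro. Hopx, a gene of alveolar type I cells, was at 4.34, 4.56, 0.736, 3.18 and 4.22 FPKM in vivo, against 0, 0.0293 and 0 FPKM in vitro. Both were called in both comparisons, with log2 changes of 1.30 and 2.01 (limma, adjusted p = 0.00124 and 0.000985). Hmga2, a chromatin protein of embryonic and poorly differentiated cells, was the gene called lower, at 71.3, 96.8, 93.9, 197 and 96.7 FPKM in vivo, against 137, 242 and 184 FPKM in vitro, with in vivo library 4 above the lowest in vitro library. It was not called against library 2. In vivo library 4 also had the most Hnf4a, a factor of gut and liver, which was at 1.35, 3.23, 4.42, 20.1 and 0.780 FPKM in vivo, against 0.739, 0.516 and 3.51 FPKM in vitro, and was not called in either comparison.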
